A study of Mus musculus with 8 samples.

Results

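Open chromatin was examined at 8 genes through which bone marrow stroma supports haematopoiesis, out of 22367 protein-coding genes annotated on the mouse build mm9. They were the ligand genes *Cxcl12*, *Kitl*, *Angpt1*, *Il7*, *Csf1* and *Thpo*, the receptor gene *Lepr*, and *Foxc1*, which encodes a transcription factor. The genes were taken by name and by their position in the GENCODE vM1 annotation. A peak belonged to a start site when the middle of the peak was no more than 1000 bases from a transcription start site of that gene. A distal peak had its centre in the gene or within 50 kb of it and further than 1000 bases from every start site of any gene.

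Sca-1+ PDGFRα+ mesenchymal stem cells of the marrow, sorted as negative for CD31, CD45 and Ter119, had been divided by surface antigens into 7 subpopulations, whose chromatin the study compared. ATAC-seq, an assay that lets the Tn5 transposase cut accessible DNA, gave the libraries ATAC1, ATAC2, ATAC3, ATAC4, ATAC5, ATAC6 and ATAC7, with an Input library as the common control. All groups were C57BL/6J mice, wild type and 6 weeks old, labelled as stromal cells from bone marrow, and the labels name no treatment. The labels do not tie a title to a sorted subpopulation, so the titles are used here. Each title had 1 library, no value has a replicate, and differences between libraries could not be tested.

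Stromal cells of the marrow hold haematopoietic stem and progenitor cells in place by secreted and membrane-bound factors. CXCL12 retains these cells through the receptor CXCR4, stem cell factor (encoded by *Kitl*) maintains them through KIT, and angiopoietin-1 acts on the receptor TIE2. IL-7 is needed for B lymphopoiesis, M-CSF (encoded by *Csf1*) for macrophages and osteoclasts, and thrombopoietin for megakaryocytes and stem cells. The leptin receptor marks perivascular stromal cells of adult marrow, and FOXC1 is known for its part in the formation of CXCL12-rich reticular cells.

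The 8 genes held 122 of the 164103 peaks of the 7 libraries, which merged into 34 regions. Of these peaks, 38 lay at a start site of the genes themselves, 48 at the start site of a neighbouring gene, and 36 were distal. A start-site peak was called in 32 of the 56 combinations of gene and library. *Il7*, *Csf1* and *Foxc1* had one in each of the 7 libraries, *Kitl* in 6, *Angpt1* in 3 and *Cxcl12* in 2, while *Lepr* and *Thpo* had none at all. Among all protein-coding genes, 36.8% had a start-site peak in all 7 libraries and 43.3% in none, and of the niche genes 3 of 8 (37.5%) and 2 of 8 (25%), with 8 genes too few to set these shares closely. A missing peak means that none passed the authors' threshold, and a peak list sets no lower limit on accessibility.

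The libraries differed in what they could show. The peak lists held between 15188 peaks (ATAC7) and 32280 peaks (ATAC2), with 3437628 to 8766021 library reads in peaks. ATAC2, ATAC5 and ATAC6 had the 3 longest lists and the 3 highest scale factors, 1.58, 1.71 and 1.57 against 1.01 to 1.23 in the other libraries. The factor is the number by which the authors' fold over Input multiplies the library reads. The authors' fold over Input at the start sites of all genes had a median of 5.89 in both ATAC3 and ATAC7, 6.32 in ATAC4, 8.63 in ATAC1, 8.73 in ATAC2, 11.9 in ATAC6 and 12.4 in ATAC5. Stromal marker genes with a start-site peak numbered 2 to 6 of 10 per library (2 to 5 of 8 without *Cxcl12* and *Lepr*, which are on that list), haematopoietic markers 1 to 5 of 10 and endothelial markers 0 to 3 of 10, while 42.0% to 52.7% of all protein-coding genes had one. Of the genes of the sort, *Pdgfra* had one in 5 libraries and not in ATAC1 or ATAC3, and *Pecam1*, which encodes CD31, had one in ATAC5 (fold 13.7). Of the other stromal markers, *Twist1* and *Col1a1* had one in 6 libraries, *Pdgfrb* in 5, *Col1a2* in 4 and *Lum* in 1. *Prrx1* and *Dcn* had none in any library. Among haematopoietic markers *Spi1*, a myeloid and B-cell transcription factor gene, had one in all 7, and *Ptprc*, which encodes CD45, in ATAC1, ATAC3, ATAC5 and ATAC7. Of the other haematopoietic markers, *Cd79b*, *Lyz2*, *Mpo* and *Gata1* had none in any library, *Cd79a* had one in 1, *Itgam* and *Klf1* in 2 and *Vav1* in 4, and the median over the 10 was 1.5 libraries, against 3 over all genes. At the *Ptprc* start site the folds over Input ran from 51.1 to 7063. The highest fold at any other marker gene was 18.1 (*Twist1*), and that of any peak listed for the niche genes was 30.0. The divisor is the Input count plus 0.01, so a fold becomes very large where Input has almost no reads. The Input reads behind the *Ptprc* folds are not given here. The part of sequencing depth and other cell types in the differences between libraries was not tested. Counts in lists of equal length are given beside those of the full lists.

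The sequences just before the first start site are shown for 4 genes, because *Il7*, *Csf1* and *Foxc1* were called at the start in every library and *Cxcl12* in only 2. Each line gives 200 bases of the mm9 genome read 5′ to 3′ on the strand of the gene and ends at the base before the start site. Capitals mark matches, on either strand, to the motifs that were searched. These were the GC box GGGCGG, the CCAAT box CCAAT, the RUNX core TGTGGT, the EBF core CCCNNGGG, the AP-1 core TGANTCA, the forkhead core TGTTTAC, the E-box CAGCTG and the CTCF core CCCTC. A match is a description of the letters and not a bound site, and neighbouring matches of the CTCF core and the GC box can overlap.
*Cxcl12* start site (chr6:117118353-117118552, plus strand): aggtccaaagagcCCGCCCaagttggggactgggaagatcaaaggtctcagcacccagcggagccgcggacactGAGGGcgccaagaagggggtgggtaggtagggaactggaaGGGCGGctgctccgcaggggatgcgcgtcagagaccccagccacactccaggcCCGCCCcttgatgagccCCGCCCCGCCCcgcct
*Il7* start site (chr3:7613723-7613922, minus strand): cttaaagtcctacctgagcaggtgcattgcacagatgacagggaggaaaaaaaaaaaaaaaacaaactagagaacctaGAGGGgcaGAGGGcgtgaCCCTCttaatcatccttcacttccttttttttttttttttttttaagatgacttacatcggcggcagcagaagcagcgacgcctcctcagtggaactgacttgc
*Csf1* start site (chr3:107563388-107563587, minus strand): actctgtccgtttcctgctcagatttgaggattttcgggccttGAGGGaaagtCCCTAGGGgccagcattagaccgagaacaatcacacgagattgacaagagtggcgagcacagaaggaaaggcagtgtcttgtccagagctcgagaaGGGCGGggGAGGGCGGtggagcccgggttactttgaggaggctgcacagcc
*Foxc1* start site (chr13:31898315-31898514, plus strand): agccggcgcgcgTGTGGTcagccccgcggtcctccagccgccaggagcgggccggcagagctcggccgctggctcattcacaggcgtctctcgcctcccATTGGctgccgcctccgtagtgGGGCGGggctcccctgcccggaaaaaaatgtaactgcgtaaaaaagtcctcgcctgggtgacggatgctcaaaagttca

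The *Cxcl12* window held 5 GC boxes, the *Csf1* window 2 and the *Foxc1* window 1, and the *Il7* window none. A GC box was present before the start sites of 4 of the 8 genes (*Cxcl12*, *Angpt1*, *Csf1* and *Foxc1*) and of 38.0% of all protein-coding genes. The CTCF core was present in 5 windows against 56.7% of all genes, the CCAAT box in 2 against 30.6%, the RUNX core in 1 (*Foxc1*) against 10.3% and the EBF core in 1 (*Csf1*) against 11.1%. The AP-1, forkhead and E-box letters were in none of the 8 windows, and in 4.80%, 2.15% and 9.64% of those of all genes. Over 1001 bases around the first start site, the *Foxc1* promoter had 65.9% G and C and an observed over expected CpG ratio of 0.95, which exceeded that of 95.5% of genes. The *Cxcl12* promoter had 62.3% and a ratio of 0.78, although it had a peak in only 2 libraries. The *Il7* promoter, with a peak in all 7, had 47.9% and 0.44, below the medians of 54.7% and 0.55 over all genes. Base composition and number of libraries therefore did not follow the same order in these genes.

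**Figure D1:**
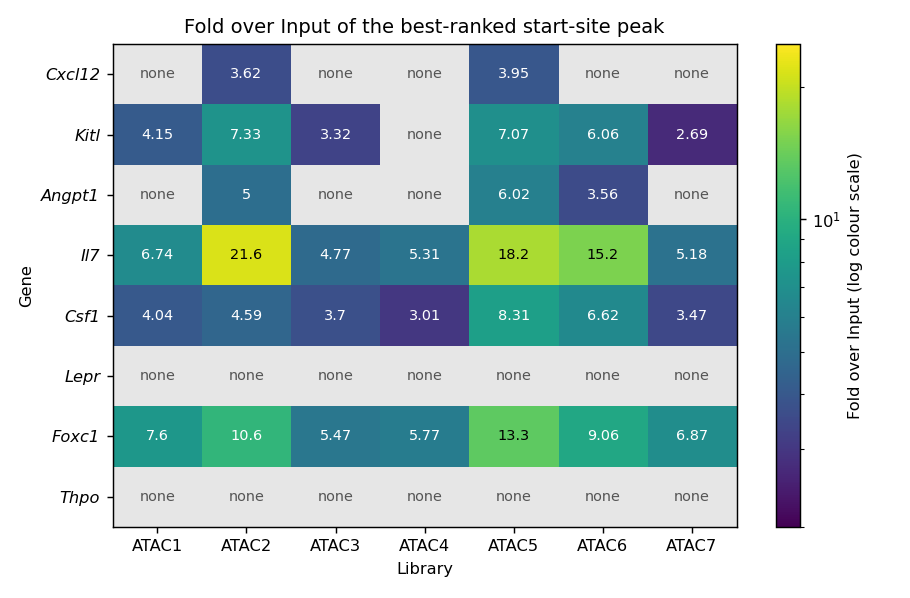
Fold over Input of the best-ranked start-site peak of each niche gene (rows) in each library (columns), on a logarithmic colour scale, with grey cells marked none where no peak was called. *Il7*, *Csf1* and *Foxc1* were filled in all 7 libraries, and *Lepr* and *Thpo* in none.

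*Cxcl12* (ENSMUSG00000061353.5, chr6:117118553-117131385, plus strand) had a start-site peak in ATAC2 and ATAC5. In ATAC2 it held 87 library reads against 38 Input reads, a fold over Input of 3.62 with a 95% exact binomial interval of 2.44 to 5.44. In ATAC5 it held 90 against 39 reads, a fold of 3.95 (2.69 to 5.91). The intervals, which cover counting error only, overlapped, and both folds were low for their lists: 3.57% of the ATAC2 peaks and 2.57% of the ATAC5 peaks had a lower one. The peaks overlapped in a region at chr6:117118575-117118732, annotated as untranslated region. ATAC6 had no start-site peak but a distal one close by, described with the distal regions. In ATAC1, ATAC3, ATAC4 and ATAC7 the nearest peak lay 486031, 250401, 494363 and 145928 bases away from the gene. *Cxcl12* thus had no peak within 50 kb in 4 of the 7 libraries.

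*Kitl* (ENSMUSG00000019966.10, chr10:99478264-99563047, plus strand) had start-site peaks in every library except ATAC4. The best-ranked peak had a fold over Input of 4.15 (2.89 to 6.06) in ATAC1, 7.33 (4.73 to 11.8) in ATAC2, 3.32 (2.42 to 4.62) in ATAC3, 7.07 (5.24 to 9.67) in ATAC5, 6.06 (4.10 to 9.18) in ATAC6 and 2.69 (1.67 to 4.48) in ATAC7. The library reads behind these values were 135, 116, 171, 227, 127 and 61, against 40, 25, 52, 55, 33 and 25 Input reads. Neighbours in the order of folds overlapped in their intervals, whereas ATAC2, the highest, and ATAC7, the lowest, did not. ATAC2 had a second start-site peak, ranked 19068 directly after the one given (19067), with 103 library reads against 34 Input reads and a fold of 4.79 (3.22 to 7.28). By that peak ATAC2 would stand below ATAC5 and ATAC6 and overlap ATAC7, whereas ATAC5 (5.24 to 9.67) lay above ATAC7 in either case. In ATAC4 the nearest peak lay 386887 bases from the gene. ATAC5 and ATAC6 had a further peak in an intron, in a region at chr10:99478858-99479274, with folds of 5.19 (3.51 to 7.83) and 6.57 (4.65 to 9.47). The gene spans 84784 bases, and no distal peak was called in it or within 50 kb of it in any library.

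*Angpt1* (ENSMUSG00000022309.8, chr15:42256273-42508523, minus strand) had start-site peaks in ATAC2, ATAC5 and ATAC6. The folds over Input were 5.001 (2.90 to 9.03), 6.02 (3.90 to 9.62) and 3.56 (2.03 to 6.47), from 57, 95 and 43 library reads against 18, 27 and 19 Input reads. All 3 intervals overlapped, and the ATAC6 peak ranked 28707 among 28969, close to the end of its list. The peak centres lay 771, 699 and 392 bases from the start site of *Angpt1*. The region they formed, chr15:42507657-42508290, also holds the start of a long noncoding RNA gene, *Gm17473*, so the peaks cannot be given to one gene alone. In ATAC3, ATAC4 and ATAC7 the nearest peak was 453652 to 593816 bases from the gene.

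*Il7* (ENSMUSG00000040329.8, chr3:7572036-7613722, minus strand) had a start-site peak in all libraries and the widest range of folds among the 8 genes. From ATAC1 to ATAC7 the library reads were 214, 860, 104, 150, 574, 597 and 136. The Input reads of the same regions were 39, 63, 22, 32, 54, 62 and 29. The corresponding folds over Input were 6.74 (4.77 to 9.74), 21.6 (16.7 to 28.3), 4.77 (2.99 to 7.94), 5.31 (3.60 to 8.04), 18.2 (13.8 to 24.5), 15.2 (11.7 to 20.03) and 5.18 (3.45 to 8.02). ATAC2, ATAC5 and ATAC6 were high and overlapped one another, the other 4 libraries were low and overlapped one another, and the intervals of ATAC6 and ATAC1, which met in the order, did not overlap. The highest fold was 4.52 times the lowest. The 3 libraries with high folds were also those with the longest lists. Divided by the median start-site fold of its own library, *Il7* stood at 2.47 in ATAC2, 1.47 in ATAC5 and 1.27 in ATAC6, and at 0.78 to 0.88 in the other 4. The same libraries were highest on this scale, but the step between the groups shrank from 2.25 to 1.44 times, and only ATAC2 (1.91 to 3.24) kept an interval above all of the other 4. The intervals of ATAC5 (1.11 to 1.98) and ATAC6 (0.98 to 1.68) overlapped that of ATAC7 (0.59 to 1.36). The ATAC2 peak ranked 2469 among 32280. The peaks lay mainly just inside the gene, at chr3:7612799-7613719, where another gene model, *Gm16685*, overlaps *Il7*. A start site of *Gm16685* also lies within 1000 bases of the best-ranked peaks, so they cannot be given to one gene alone.

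*Csf1* (ENSMUSG00000014599.4, chr3:107543966-107563387, minus strand) also had a start-site peak in every library, in a narrow region at chr3:107563119-107563406 annotated as untranslated region. From ATAC1 to ATAC7 the folds over Input were 4.04 (3.05 to 5.42), 4.59 (3.50 to 6.07), 3.70 (2.78 to 5.002), 3.01 (2.16 to 4.26), 8.31 (6.48 to 10.8), 6.62 (5.16 to 8.59) and 3.47 (2.51 to 4.87). They came from 214, 212, 224, 133, 369, 328 and 157 library reads and 65, 73, 61, 50, 76, 78 and 50 Input reads. All neighbours in the order overlapped in their intervals, and the highest and the lowest value, 2.76 times apart, did not. Relative to the median start-site fold of the library, *Csf1* lay between 0.47 and 0.67, low in each library. ATAC2, ATAC5 and ATAC6, which led at *Il7*, had the 3 highest folds at *Csf1* too, and the same holds for *Kitl* and *Foxc1*. Relative to the library medians this order was lost: ATAC3 (0.63) and ATAC7 (0.59) stood above ATAC6 (0.55) and ATAC2 (0.53) at *Csf1*, ATAC3 (0.56) above ATAC6 (0.51) at *Kitl*, and ATAC6 (0.76) was the lowest at *Foxc1*.

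*Thpo* (ENSMUSG00000022847.8, chr16:20725231-20734584, minus strand) lacked a start-site peak throughout. In 6 libraries the nearest peak lay 1332 to 1429 bases from a start site of the gene, in a region at chr16:20733074-20733430. This region is at the start of *Chrd*, which encodes the BMP antagonist chordin and overlaps *Thpo*, and its folds over Input were 4.27 to 6.06. In ATAC3 the nearest peak to a start site lay 12983 bases away. With a window of 2500 bases in place of 1000, *Thpo* would count as having a start-site peak in 6 libraries. The gene lies in a dense neighbourhood: 40 of the 48 peaks at start sites of other genes were counted around *Thpo*.

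**Figure D2:**
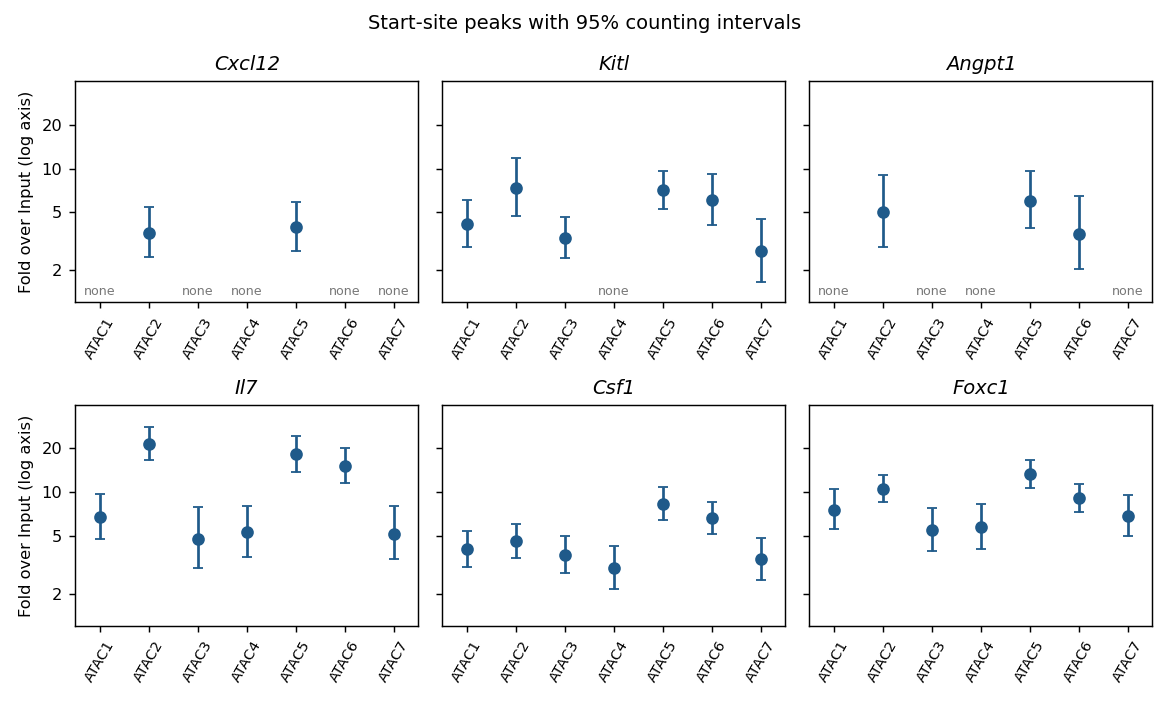
Fold over Input on a logarithmic axis (points) with 95% exact binomial intervals for counting error (bars), for the 6 genes with a start-site peak, by library. In *Il7* the points of ATAC2, ATAC5 and ATAC6 (15.2 to 21.6) lie above those of the other 4 libraries (4.77 to 6.74), while the intervals of neighbouring values overlap throughout in the other genes.

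*Lepr* (ENSMUSG00000057722.10, chr4:101390009-101487957, plus strand) was the only one of the 8 genes without any peak in it or within 50 kb of it in all 7 libraries. Among all protein-coding genes 18.6% had no such peak. Of the 2454 genes at least as long as *Lepr*, 208 (8.48%) had none. The nearest peaks lay upstream, at 59941 to 69944 bases from the gene. In 5 libraries the nearest was the peak at the start site of *Leprot*, a neighbouring gene that encodes a different protein. The *Leprot* start site itself had a peak in all 7 libraries, with 1446, 1376, 1088, 955, 2048, 2243 and 1050 reads in ATAC1 to ATAC7 and folds over Input of 19.96, 25.6, 13.1, 12.9, 41.3, 39.2 and 16.1. It ranked between 311 and 1029 in the lists. In ATAC5 and ATAC6 a weaker peak lay nearer, with 25 and 31 library reads against 4 Input reads each. The first annotated start site of *Lepr* in GENCODE vM1 thus lay 69913 to 70034 bases from a strong peak, and the statement that *Lepr* had no peak depends on the limits of the gene in that annotation.

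*Foxc1* (ENSMUSG00000050295.2, chr13:31898515-31902504, plus strand) had a start-site peak in all libraries, in a region at chr13:31898150-31899000. The folds over Input were 7.60 (5.59 to 10.5) in ATAC1, 10.6 (8.56 to 13.2) in ATAC2, 5.47 (3.94 to 7.76) in ATAC3, 5.77 (4.10 to 8.32) in ATAC4, 13.3 (10.7 to 16.7) in ATAC5, 9.06 (7.30 to 11.3) in ATAC6 and 6.87 (5.001 to 9.63) in ATAC7. The library reads were 297, 657, 233, 204, 739, 564 and 280, against 48, 98, 43, 40, 95, 98 and 45 Input reads. Neighbouring values overlapped in their intervals, and ATAC5 and ATAC3, the highest and the lowest, did not, at a ratio of 2.44. Against the median start-site fold of each library, *Foxc1* stayed between 0.76 and 1.21, close to an average start site.

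Within each library the order of the genes does not depend on the scale factor, because all folds of a library carry the same one. *Il7* and *Foxc1* had the highest folds of the 8 genes in all 7 libraries. *Foxc1* led in ATAC1, ATAC3, ATAC4 and ATAC7, where the *Il7* fold was 0.89, 0.87, 0.92 and 0.75 of the *Foxc1* fold. *Il7* led in ATAC2, ATAC5 and ATAC6, where it was 2.04, 1.37 and 1.67 times the *Foxc1* fold. Further start-site peaks would turn the order in 2 libraries: a second *Foxc1* peak in ATAC3 had a fold of 3.33, below *Il7* at 4.77, and a second *Il7* peak in ATAC5 had 10.8, below *Foxc1* at 13.3. The binomial intervals of the best-ranked peaks did not overlap in ATAC2 and ATAC6 and overlapped in the other 5 libraries. *Csf1* followed *Il7* and *Foxc1* in ATAC3 to ATAC7, and *Kitl* in ATAC1 and ATAC2. In ATAC2 the other *Kitl* peak, at 4.79, would come after *Angpt1* at 5.001. *Cxcl12* was last in both libraries in which it had a peak. This comparison of *Il7* with *Foxc1* was chosen after the values were seen.

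Counted by library, start-site peaks were called at 6 of the 8 genes in ATAC2 and ATAC5, at 5 in ATAC6, at 4 in ATAC1, ATAC3 and ATAC7, and at 3 in ATAC4. Among all protein-coding genes the shares with a start-site peak were, from ATAC1 to ATAC7, 49.0%, 50.2%, 43.5%, 43.7%, 52.7%, 51.5% and 42.0%. The niche genes thus stood at 75.0% in ATAC2 and ATAC5 and at 37.5% in ATAC4, and with 8 genes a difference of 1 or 2 genes sets these shares. *Cxcl12* and *Angpt1* were the genes that ATAC2 and ATAC5 had beyond ATAC1, ATAC3 and ATAC7, and *Kitl* was the gene missing in ATAC4. In lists limited to the 15188 best-ranked peaks of each library, 4 niche genes had a start-site peak in ATAC2, ATAC3, ATAC5, ATAC6 and ATAC7 and 3 in ATAC1 and ATAC4. At that length the shares of all genes were, from ATAC1 to ATAC7, 44.3%, 41.5%, 43.1%, 43.4%, 45.6%, 45.9% and 42.0%. Start-site peaks were then left in 0 libraries for *Angpt1* and in 1 for *Cxcl12*.

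**Figure D3:**
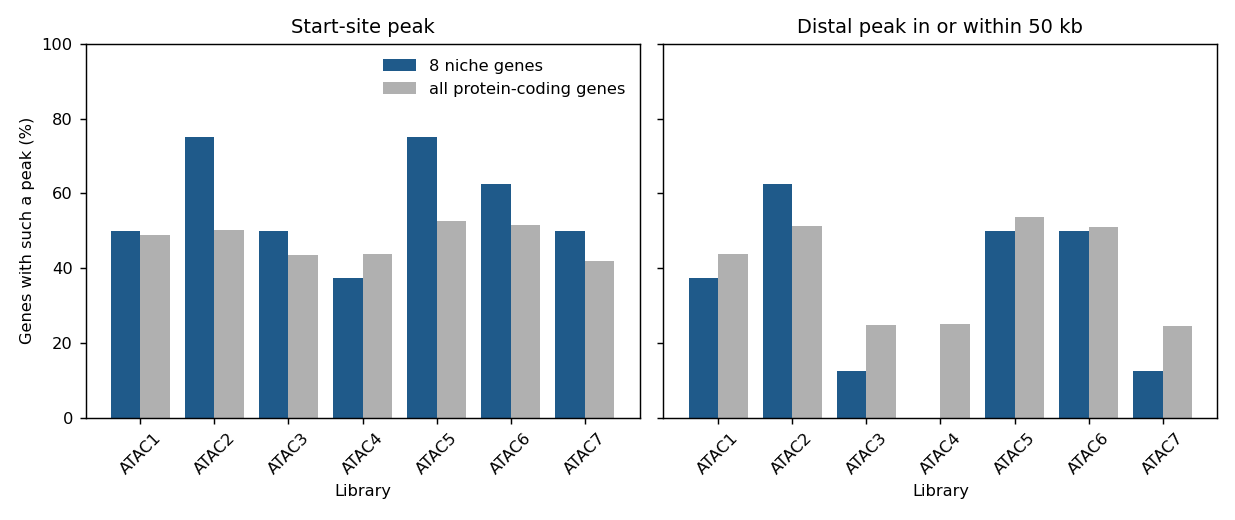
Percent of the 8 niche genes (blue) and of all 22367 protein-coding genes (grey) with a start-site peak (left) and with a distal peak in or within 50 kb (right), by library. The niche genes exceeded the background most at start sites in ATAC2 and ATAC5 (75.0% against 50.2% and 52.7%), and had no distal peak in ATAC4.

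Distal peaks around the 8 genes numbered 12 in ATAC2, 11 in ATAC5, 8 in ATAC6, 3 in ATAC1, 1 in ATAC3, 1 in ATAC7 and 0 in ATAC4. They belonged to 5, 4, 4, 3, 1, 1 and 0 of the 8 genes, in the same order. The share of all protein-coding genes with a distal peak was 51.2% in ATAC2, 53.6% in ATAC5, 51.1% in ATAC6, 43.7% in ATAC1, 24.7% in ATAC3, 24.4% in ATAC7 and 25.1% in ATAC4. The niche genes, at 62.5% in ATAC2, 50% in ATAC5 and ATAC6, 37.5% in ATAC1, 12.5% in ATAC3 and ATAC7 and 0% in ATAC4, differed from this background by less than 1 gene in every library except ATAC4, where 2.01 of 8 genes would correspond to the background and 0 had a distal peak. The distal peaks merged into 17 regions, none of them called in more than 5 libraries. Of the 17 regions, 8 (47.1%) were called in 1 library, against 49.9% of the 30674 distal regions of the genome. Only in ATAC2, ATAC5 or ATAC6 were 13 of the 17 (76.5%) called, against 61.3% of the 30674. Those 3 libraries held 86.1% of the 36 distal peaks near the niche genes and 68.3% of all 70336 distal peaks. In lists of equal length, ATAC2 had 3, ATAC1 had 2, ATAC3, ATAC5 and ATAC7 had 1, and ATAC4 and ATAC6 had 0 distal peaks near the niche genes, out of 3493 to 4951 distal peaks in a list.

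The distal sequences of 4 genes are shown. Each is the distal region of its gene called in the most libraries or, for *Il7*, the one with the highest fold. Distal regions of *Csf1* and *Thpo* are not shown, so the 4 lines do not stand for all 17 distal regions. Each line gives 200 bases of mm9 on the plus strand around the median of the peak centres, 5′ to 3′. Capitals mark the same motifs as before and, in the *Cxcl12* line, a longer match to the CTCF consensus, which was searched only after the sequence had been seen and contains the CTCF core. For *Foxc1* the region called in the most libraries lies in its coding exon, and the region upstream called in 4 libraries is shown instead, a choice made after its values were seen.
*Cxcl12* distal region (chr6:117116937-117117136, plus strand): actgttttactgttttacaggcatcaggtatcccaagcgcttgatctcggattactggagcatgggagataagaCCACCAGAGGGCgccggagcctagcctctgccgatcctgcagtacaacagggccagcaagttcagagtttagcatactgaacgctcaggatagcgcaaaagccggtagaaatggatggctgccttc
*Angpt1* distal region (chr15:42506429-42506628, plus strand): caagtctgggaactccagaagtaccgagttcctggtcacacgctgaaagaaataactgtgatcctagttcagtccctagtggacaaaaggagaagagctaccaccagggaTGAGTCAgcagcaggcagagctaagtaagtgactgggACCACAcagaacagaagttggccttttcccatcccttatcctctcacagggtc
*Il7* distal region (chr3:7607336-7607535, plus strand): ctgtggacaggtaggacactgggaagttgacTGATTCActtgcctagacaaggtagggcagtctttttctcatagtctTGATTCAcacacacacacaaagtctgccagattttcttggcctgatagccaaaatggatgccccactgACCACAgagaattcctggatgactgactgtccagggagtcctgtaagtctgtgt
*Foxc1* distal region (chr13:31856506-31856705, plus strand): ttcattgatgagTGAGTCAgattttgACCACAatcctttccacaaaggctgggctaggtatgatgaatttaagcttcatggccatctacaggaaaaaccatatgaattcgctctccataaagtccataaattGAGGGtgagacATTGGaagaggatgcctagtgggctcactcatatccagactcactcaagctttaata

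The *Cxcl12* region at chr6:117117012-117117075 lies between genes, about 1516 bases before the first start site. It was called in ATAC5, with 72 library reads against 12 Input reads and a fold over Input of 10.3 (5.54 to 20.8), and in ATAC6, with 48 against 11 reads and a fold of 6.87 (3.52 to 14.7). The 2 intervals overlapped, and in ATAC5 the fold of this region was above that of the start-site peak (3.95), with overlapping intervals. The CTCF consensus that it holds was found in 4.12% of the 30674 distal windows and before 0.45% of start sites. CTCF is a DNA-binding protein that organises chromatin loops.

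The *Angpt1* region at chr15:42506057-42506590 lies in an intron, about 1995 bases inside the gene. ATAC1 had 100 library reads against 15 Input reads there (fold 8.18), ATAC2 had 96 against 16 (9.47) and ATAC6 had 63 against 8 (12.4). ATAC5 had a pair of peaks, with 64 against 6 reads (18.2) and 67 against 9 (12.7). All these folds exceeded those of the *Angpt1* start-site peaks in the same libraries by value, but the intervals overlapped in ATAC2, ATAC5 and ATAC6 alike. For the lower ATAC5 peak the interval was 6.33 to 29.1 against 3.90 to 9.62 at the start site. ATAC1 had this peak and no start-site peak. The binomial intervals of the intronic folds, from 4.74 to 15.2 in ATAC1 to 7.95 to 51.6 for the higher ATAC5 peak, overlapped.

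The *Il7* region at chr3:7607347-7607523 lies in an intron 6287 bases inside the gene and was called only in ATAC2. It held 133 library reads against 7 Input reads, a fold of 30.0 (14.2 to 76.1), the highest fold of any peak listed for the 8 genes. A second region, chr3:7535308-7535370, in an intron of the neighbouring gene *Fam164a*, was also called only in ATAC2, with 46 against 8 reads and a fold of 9.07 (4.25 to 22.3). ATAC2 was at the same time the library with the highest fold at the *Il7* start site. For *Csf1*, a region just past the end of the gene, chr3:107542520-107542801, was called in ATAC2 (87 against 15 reads, fold 9.16) and ATAC5 (63 against 11 reads, fold 9.80). Another, chr3:107586273-107586507, about 23004 bases before the start, was called in ATAC1 (97 against 18 reads, fold 6.62) and ATAC5 (74 against 19 reads, fold 6.67).

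*Foxc1* accounted for 20 of the 36 distal peaks and 8 of the 17 distal regions, with at least 1 in every library except ATAC4. A pair of neighbouring regions upstream had the highest folds. The first, chr13:31856405-31856787, about 41910 bases before the start site, was called in ATAC2 (113 against 7 reads, fold 25.5), ATAC5 (72 against 8, fold 15.4), ATAC6 (63 against 7, fold 14.2) and ATAC7 (60 against 5, fold 13.2). It was the only distal peak near the niche genes in ATAC7. The second, chr13:31857338-31857634, was called in ATAC2 (137 against 10 reads, fold 21.6), ATAC5 (82 against 7, fold 20.04) and ATAC6 (68 against 4, fold 26.7). With so few Input reads the intervals were wide, 9.99 to 101 for the last value, and all folds within each region overlapped. These regions lie between genes, and the peak lists do not show which gene they act on.

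Closer to *Foxc1*, a region at chr13:31893158-31893284 was called in ATAC5 (fold 7.29) and ATAC6 (3.80), about 5278 bases before the start. The coding exon, at chr13:31899655-31900475, had peaks in ATAC1, ATAC2, ATAC3, ATAC5 and ATAC6 with lower folds of 2.89 to 5.49, and it was the most widely called distal region. Beyond the gene, chr13:31902540-31902808 was called in ATAC2 (5.48), chr13:31903047-31903343 in ATAC6 (4.72), and chr13:31912578-31912830, in an intron of *Gmds*, in ATAC2 (4.05) and ATAC5 (3.93). The far upstream pair of regions thus had higher folds than the start site in the same libraries, by value, but from 60 to 137 library reads against 280 to 739 at the start site. Another upstream region, chr13:31852721-31853013, about 45648 bases before the start, was called in ATAC2 only (62 against 13 reads), and its fold of 7.53 (4.10 to 14.9) was below that of the start site. *Thpo* had 3 distal regions, all in exons of its neighbour *Fam131a*, in ATAC2 and ATAC6 only. The strongest, chr16:20702729-20702772, had 58 library reads against 5 in ATAC2, a fold of 18.3 (7.42 to 58.6).

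**Figure D4:**
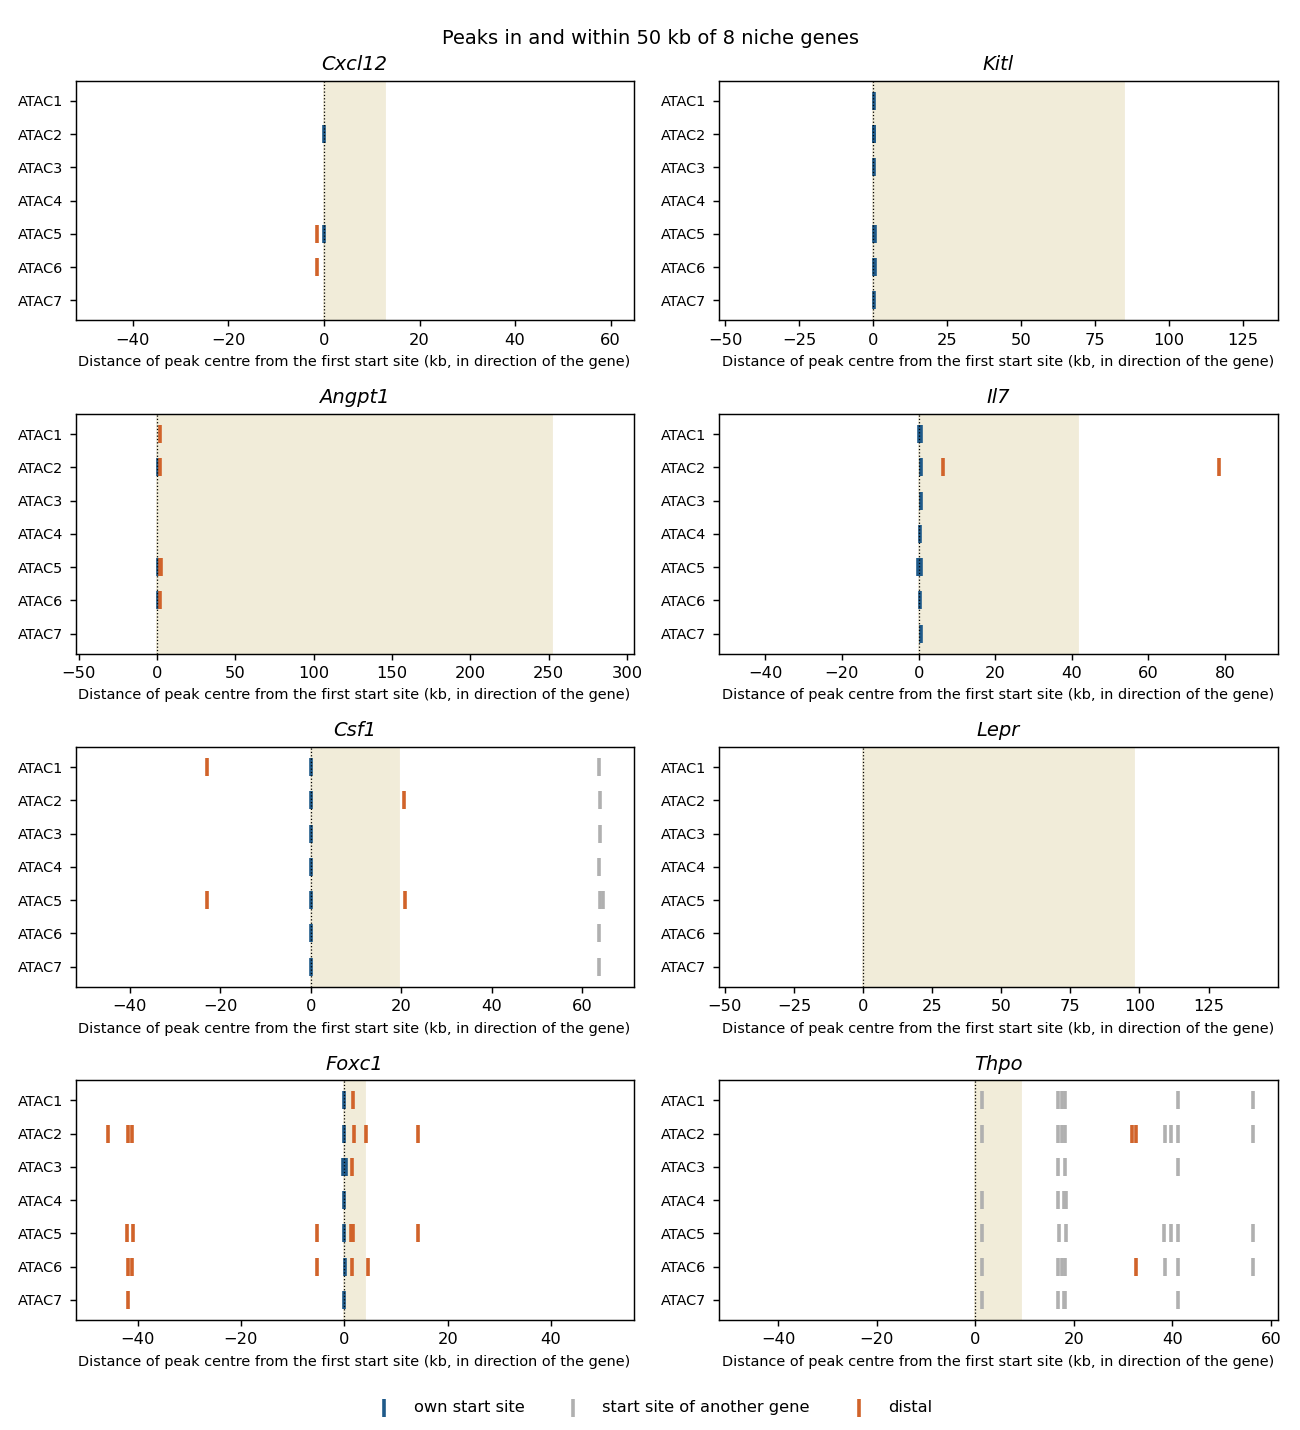
Position of each peak relative to the first start site of its gene (x axis, kb in the direction of transcription) in the 7 libraries (rows), with the gene body shaded. Blue marks the gene's own start site, grey the start site of another gene and orange distal peaks, and orange marks cluster around *Foxc1* (20 of 36), while *Lepr* has no mark.

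Across all 17 distal regions, the RUNX core was present in 8 windows of 200 bases (47.1%) against 23.0% of the 30674 distal windows of the genome. The GC box was present in 5 (29.4%) against 10.2%, the CTCF core in 9 (52.9%) against 48.2% and the E-box in 4 (23.5%) against 16.3%. The AP-1 core was in 3 (17.6%) against 24.3%, the CCAAT box in 2 (11.8%) against 21.7%, the forkhead core in 1 (5.88%) against 3.63% and the EBF core in 0 against 7.65%. The 3 windows with an AP-1 core, in *Angpt1*, *Il7* and *Foxc1*, are among those shown, and each also has the RUNX core. Both motifs together occurred in 5.91% of all distal windows. RUNX proteins are transcription factors of blood and bone, and AP-1 is a widely used factor of the FOS and JUN families. Neighbouring regions of *Foxc1* are not independent of one another, and these shares are descriptions.

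Receptors of CXCL12, stem cell factor, angiopoietin-1, IL-7 and M-CSF, with leptin as the ligand of *Lepr*, gave 7 genes. *Cxcr4*, the receptor of CXCL12, had a start-site peak in all 7 libraries, with folds over Input of 4.87 to 11.4. Its ligand gene had one in only 2. *Kit* had one in ATAC4, ATAC5 and ATAC6 (2.81 to 4.07), and ATAC4 was the library without a *Kitl* peak. The other 5 genes, *Ackr3* (annotated as *Cxcr7*), *Tek*, *Il7r*, *Csf1r* and *Lep*, had none in any library, which is 71.4% of the 7 against the 43.3% of all genes. Among 20 further niche genes, *Flt3l*, which encodes a growth factor of progenitors and dendritic cells, was the only one with a start-site peak in all 7 libraries (2.82 to 7.26). *Il6* (3.44 to 8.17), *Il11* (2.24 to 10.04) and *Il15* (3.70 to 7.34), which encode cytokines, each had one in 4 libraries. A total of 9 of the 20 (45%) had none in any library, against 43.3% of all protein-coding genes, among them *Bst1* and *Csf2*, and the median was 1 library, against 3 over all protein-coding genes and 4.5 for the 8 niche genes. By library, 9 of the 20 (45%) had a start-site peak in ATAC2 and in ATAC5, against 50.2% and 52.7% of all genes. The numbers were 5 (25%) in ATAC6 against 51.5%, 4 (20%) in ATAC1 against 49.0%, 2 (10%) in ATAC3 and in ATAC7 against 43.5% and 42.0%, and 1 (5%) in ATAC4 against 43.7%.

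For each of the 6 genes with start-site peaks in at least 2 libraries, the protein-coding genes with the most similar pattern were found by the mean absolute difference of log2(scaled reads + 1) over the 7 libraries, among 12676 genes, with 0 reads where no peak was called. The pattern of *Cxcl12* was closest to *Npr1* and *Kcnk2*, at 0.03 for both, and these genes also had peaks in 2 libraries. *Angpt1* was closest to *Kdm5b* (0.04) and *Adam12* (0.05), with peaks in 3 libraries. *Kitl* was closest to *Cdca7* (0.17) and to the collagen gene *Col1a1* (0.22), with peaks in 6. The genes with peaks in all libraries had *Rab3gap1* (0.25) and *Vasn* (0.26) next to *Il7*, *Cd320* (0.11) and *Agphd1* (0.12) next to *Csf1*, and *Nr3c2* (0.14) and *Myadm* (0.14) next to *Foxc1*. For *Cxcl12* and *Angpt1* the likeness rests mostly on the libraries without a peak.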

How the data were processed

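Mouse bone marrow stromal cells were measured by ATAC-seq in 7 libraries with 1 Input control. According to the study's methods, bowtie placed the reads on mm9, and the authors used CisGenome to call the peaks of every library against Input, at a p-value limit of 1e-05 and an FDR under 0.01. Versions of bowtie and CisGenome, a Tn5 shift and duplicate removal are not given in the sources used here. Without a shift the edges of peaks would be off slightly. Per peak, the deposited tables list the read count of the library and that of Input over an outer region. Fold over Input is a ratio that the authors computed as the library count times a scale factor, divided by the Input count plus 0.01. The deposited signal columns of the peak caller were read only to identify the table. Lists of bare coordinates were not used. Total reads per library were not analysed here, so depth is known only through the counts in peaks and the scale factor. The paper does not state how the factor was set. If it brings each library to the depth of Input, a larger factor stands for fewer library reads in all.

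Peak centres were set against GENCODE vM1 on NCBIM37 (mm9) with start sites of all transcripts. The best-ranked peak stood for a start site. Each fold has a 95% Clopper-Pearson interval from the split of reads between library and Input, and no test was made. Assignment was tested on simulated data. Printed start-site sequences end before the first start site rather than being centred on the peak, so that no untranslated region is shown. Python 3.11.15, numpy 2.4.6, pandas 2.3.3, scipy 1.17.1, matplotlib 3.10.9 and samtools 1.23.1 were used. The genes, the lists and the rules were chosen with earlier results of these data known. Named genes were the 8 niche genes, at most 8 genes of the fixed lists with peaks in the most and the fewest libraries, and the 2 most similar genes of each. *Kit*, *Tek*, *Il7r*, *Lep*, *Il6*, *Leprot* and the marker genes named were added after their values were seen. One item of the lists is not reported here. Alternatives were a fold of at least 5, lists of equal length, other windows and flanks, and start sites of coding transcripts.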

Additional observations from a re-analysis of the deposited data

How the results depend on the processing

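Of 120 comparisons of a count with its value under another setting, 93 stayed within 1.5 times and 27 moved. Distal peaks, 3, 12, 1, 0, 11, 8 and 1 in ATAC1 to ATAC7, became 7, 21, 2, 1, 23, 17 and 3 within 100 kb. Within 10 kb they were 5 in ATAC2, 7 in ATAC5, 5 in ATAC6 and 0 in ATAC7. In the 15188 best-ranked peaks of each list they were 3 in ATAC2, 1 in ATAC5 and 0 in ATAC6. With a fold of at least 5 they were 0 in ATAC3 and 4 in ATAC6. Libraries with a start-site peak fell from 3 to 1 for *Angpt1* within 500 bases and to 0 in lists of equal length. *Cxcl12* fell from 2 to 1 in lists of equal length. With a fold of at least 5 *Cxcl12* had 0, *Csf1* 2 in place of 7 and *Kitl* 3 in place of 6. *Thpo* rose from 0 to 6 within 2500 bases. With a fold of at least 5 the genes with a start-site peak fell to 2 in ATAC1, 1 in ATAC3 and 2 in ATAC7, each from 4. Fewer peaks or a wider window account for these counts by construction. The number of libraries with a start-site peak stayed within 1.5 times for *Il7*, *Foxc1* and *Lepr* in each setting tried. Libraries with any peak around *Lepr* rose from 0 to 7 within 100 kb, a flank added for *Lepr* after seeing the data. No paired analysis was possible because there was 1 library per title, and leaving out a replicate was not possible for the same reason. Counting intervals hold no biological error.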
